A study of Mus musculus with 20 samples.

Results

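AKF organoids are mouse intestinal organoids labelled *Mettl3*-/- that also carry retroviruses for overexpression of 3 transcription factors, *Ascl2*, *Klf9* and *Fosb*. They are described here by the 2 AKF libraries and the 2 libraries of *Mettl3*-/- organoids without these factors (KO), chosen by their labels, which are 4 of the 20 RNA sequencing libraries in the series. Of the 54838 gene rows in the organoid table, 12183 reached 1 FPKM in at least 2 of these 4 libraries and were tested. FPKM is a count of fragments scaled to the length of the gene and the size of the library.

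All organoids were C57BL/6 and, per the labels' protocols, the factor-carrying ones came from mice with *Mettl3* fl/fl alleles and 2 tamoxifen-inducible Cre alleles, Villin-CreERT2, active in gut epithelium, and Lgr5-EGFP-IRES-CreERT2, active in crypt stem cells. Animal age is not given. AKF organoids were infected with the AKF overexpression virus, kept under puromycin to select infected cells, and given 4-OHT, the active form of tamoxifen, for 2 days to induce both the *Mettl3* deletion and the factors. KO organoids, also labelled *Mettl3*-/-, were given 4-OHT for 2 days, and WT organoids, labelled wild type, were given ethanol for 2 days. AKFP organoids, labelled *Mettl3*-/-, had the same 3 factors with *Purb* and the same 4-OHT treatment. Each group had 2 libraries of living cells sorted from organoids grown in Matrigel with EGF, Noggin and R-spondin1. The labels name no empty virus in KO or WT organoids, so the factors, the infection and the puromycin selection cannot be told apart. KO and WT titles also carry the unexplained tag "m3-flag".

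METTL3 is the catalytic subunit of the complex that writes N6-methyladenosine (m6A) into RNA, a mark that sets the lifetime and translation of many transcripts. ASCL2 is a basic helix-loop-helix transcription factor that is induced by Wnt signalling in Lgr5+ crypt stem cells and is needed for their identity in the mouse intestine. KLF9 is a Kruppel-like zinc finger factor that binds GC-rich DNA, and FOSB is a member of the AP-1 family that pairs with JUN proteins. Organoids of the small intestine hold crypt-like buds with stem cells and Paneth cells, together with goblet cells, enteroendocrine cells and enterocytes.

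All 4 AKF and KO libraries correlated closely, and the 2 AKF libraries were less alike than any pair of an AKF and a KO library. Estimated depth ran from 18150000 to 24570000 fragments, and the correlation of log2(FPKM + 1) over the tested genes was 0.986 between the 2 AKF libraries, 0.989 between the 2 KO libraries and 0.988 to 0.989 between AKF and KO libraries. The 8 listed epithelial genes were abundant, with a summed level of 4269 and 3688 FPKM in AKF libraries and 3768 and 3835 FPKM in KO libraries. None of the 9 listed immune genes reached the level tested, with summed levels of 0.780 to 1.75 FPKM over the 4 libraries and 4 of the 9 at 0 in all of them. Of the 12 stromal and endothelial genes only *Vim* was tested, and their summed level was 4.54 to 5.26 FPKM. AKFP libraries stood apart, because the Y-linked genes *Kdm5d*, *Uty*, *Ddx3y* and *Eif2s3y* were listed at 0 in both and above 1 FPKM in all AKF, KO and WT libraries, while *Xist* stood at 47.5 and 33.3 FPKM in AKFP and at most 0.0153 FPKM in the others. Differences of AKFP from the other groups therefore cannot be told apart from a difference between lines. The AKFP libraries also enter the shared estimate of the spread, and the counts of calls are given with and without them.

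Few genes separated AKF from KO organoids. limma, which was fitted to all 8 organoid libraries so that they shared 1 estimate of the spread, called 7 of 12183 genes (0.0575%) at a Benjamini-Hochberg adjusted p under 0.05. Of these, 6 were higher in AKF (0.0492%) and 1 was lower (0.00821%), and the median difference over all tested genes was 0.00 on the log2(FPKM + 1) scale. Without adjustment, 562 genes (4.61%) had a p under 0.05. The called genes were *Ascl2*, *R3hdml*, *Tmed2*, *Gkn3*, the small RNA genes *Gm47299* and *Snord16a*, all higher in AKF, and *Kctd12*, lower in AKF. Without the AKFP libraries 5 genes were called, and *Tmed2* and *Gkn3* were not among them. Leaving out AKF replicate 1 gave 2 higher and 5 lower calls, and leaving out AKF replicate 2 gave 3 higher and 4 lower, and in each case only *Ascl2*, *R3hdml* and *Kctd12* of the 7 remained called. *Kctd12* passed the filter on low values only through KO, and *Gm47299* and *Snord16a* only through AKF. *Gm47299* and *Snord16a* were therefore not tested in the fits with 1 AKF library. P-values measure only the spread between these libraries, since the labels do not say that libraries of a group came from separate cultures. In bulk RNA, fewer cells of a type and less RNA per cell cannot be told apart.

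**Figure D1:**
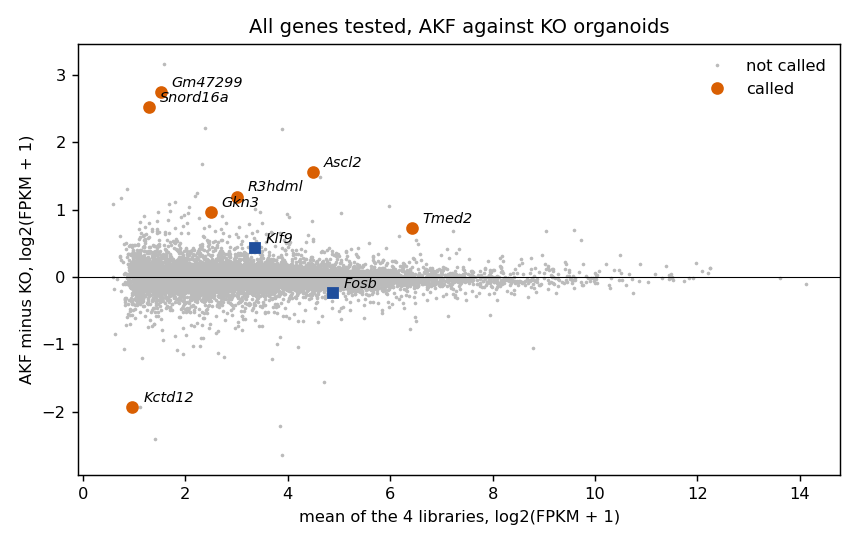
Difference between AKF and KO organoids for each of the 12183 tested genes, against the mean of the 4 libraries, both on the log2(FPKM + 1) scale. Orange points are the 7 called genes, blue squares are *Klf9* and *Fosb*, which were not called, and most grey points lie near 0.

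Of the 3 delivered factors only *Ascl2* was called higher in AKF than in KO. *Ascl2* (ENSMUSG00000009248, chr7:142966829-142969264 in mm10) stood at 36.8 and 38.6 FPKM in AKF organoids, against 12.4 and 12.0 FPKM in KO and 10.7 and 12.0 FPKM in WT organoids. Both AKF libraries were above all KO and WT libraries, with a ratio of means of 3.10 to KO and a log2 difference of 1.56 ± 0.07 (SE, n = 2 libraries a group; limma adjusted p = 0.00158). This call held in all 21 alternative analyses. KO and WT did not differ beyond their spread for *Ascl2* (log2 difference 0.09, 95% interval -0.09 to 0.27). FPKM per gene does not separate viral from endogenous transcripts.

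*Klf9* (ENSMUSG00000033863) stood at 11.1 and 10.7 FPKM in AKF organoids, 7.79 and 7.90 FPKM in KO and 5.66 and 5.78 FPKM in WT. The 3 groups did not overlap, but the AKF difference from KO of 0.43 on the log2 scale (95% interval 0.27 to 0.59) had an unadjusted p of 0.000403 and did not pass (limma adjusted p = 0.189). Against WT the AKF libraries passed, with a log2 difference of 0.82 (adjusted p = 0.000501), of which the KO difference from WT was 0.40 (adjusted p = 0.00667).

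*Fosb* (ENSMUSG00000003545) stood at 25.8 and 26.7 FPKM in AKF organoids, against 38.2 and 25.4 FPKM in KO and 31.8 and 33.2 FPKM in WT. AKF and KO overlapped, and the log2 difference was -0.24 (95% interval -0.68 to 0.20; limma adjusted p = 1.0). The interval leaves out a rise of the size seen for *Ascl2*, so the *Fosb* level went against the AKF label, which names these libraries below as given. Without the first KO library the difference was 0.04 and without the second it was -0.52. *Purb*, which encodes a nucleic acid binding protein and is delivered only in AKFP, stood at 15.9 and 16.8 FPKM in AKF and 14.3 and 17.1 FPKM in KO, and these overlapped. *Mettl3* stood at 3.33 and 3.57 FPKM in AKF, 3.62 and 3.47 FPKM in KO and 3.23 and 3.56 FPKM in WT, which cannot check the deletion, because a gene-level value does not show the loss of an exon.

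AKFP organoids had a different balance of the same factors. *Ascl2* was lower in AKFP than in AKF, at 19.0 and 19.2 FPKM against 36.8 and 38.6 FPKM (log2 difference -0.94, limma adjusted p = 0.000643, in a comparison that called 12.8% of 12657 genes higher and 12.7% lower). *Klf9* was higher in AKFP, at 36.0 and 38.4 FPKM against 11.1 and 10.7 FPKM (log2 difference 1.68, adjusted p = 4.72e-05). *Fosb* was lower in AKFP, at 12.4 and 9.77 FPKM against 25.8 and 26.7 FPKM (log2 difference -1.18, adjusted p = 0.00706).

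**Figure D2:**
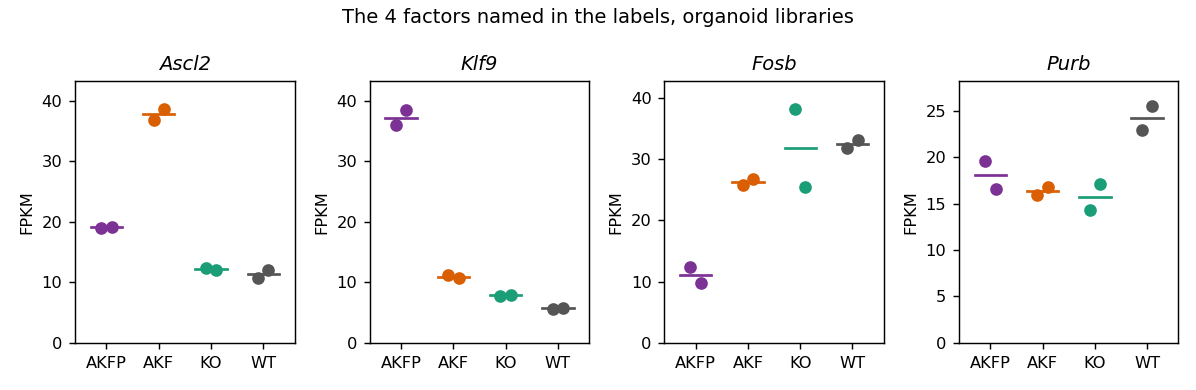
FPKM of *Ascl2*, *Klf9*, *Fosb* and *Purb* in each organoid library, with the line at the mean of the 2 libraries of a group. Both AKF points of *Ascl2* lie above 36 FPKM and no KO or WT point of it is above 12.4 FPKM, while for *Fosb* the AKF points lie within the KO range.

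Apart from *Ascl2*, 3 protein-coding genes were called higher in AKF than in KO. *R3hdml* (ENSMUSG00000078949, chr2:163492318-163502612), which encodes a predicted secreted protein of the CAP superfamily, stood at 11.4 and 10.9 FPKM in AKF, against 4.23 and 4.42 FPKM in KO and 1.40 and 1.41 FPKM in WT. The 3 groups stood apart in this order with no overlap. The log2 difference from KO was 1.19 ± 0.07 (SE; limma adjusted p = 0.00241), KO was itself 1.15 above WT (adjusted p = 0.000373), and AKF was 2.34 above WT (adjusted p = 3.41e-05). *R3hdml* was the only knockout change that was also called further from WT in AKF against KO. It was called in 20 of 21 alternatives and lost the call only when the 4 libraries were fitted alone (adjusted p = 0.0527). The antisense gene *Hnf4aos*, at 1.5 and 0.299 FPKM in AKF and 1.16 and 0.511 FPKM in KO, overlaps it, and the counting is not stated to use strand.

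*Gkn3* (ENSMUSG00000030048, chr6:87383256-87388935), a gastrokine that marks crypt base stem cells in mouse small intestine, stood at 7.10 and 6.69 FPKM in AKF, against 2.82 and 3.31 FPKM in KO and 4.32 and 4.12 FPKM in WT. Both AKF libraries were above every KO and WT library. The log2 difference from KO was 0.96 ± 0.10 (SE; limma adjusted p = 0.0481), KO was 0.36 below WT (adjusted p = 0.0348), and AKF was 0.60 above WT (adjusted p = 0.00552). The call against KO was lost when any 1 of the 8 libraries was left out, and held in 4 of 21 alternatives (adjusted p between 0.0332 and 0.242, log2 difference between 0.87 and 1.15).

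*Tmed2* (ENSMUSG00000029390, chr5:124540695-124550506), a p24 cargo receptor of vesicles between the endoplasmic reticulum and the Golgi, stood at 108.5 and 109.3 FPKM in AKF, against 63.7 and 67.7 FPKM in KO and 124.4 and 126.7 FPKM in WT. AKF lay between KO and WT with no overlap. The log2 difference from KO was 0.72 ± 0.07 (SE; limma adjusted p = 0.0220), and the remaining difference from WT of -0.20 did not pass (adjusted p = 0.0529). The call was lost when any 1 of the 8 libraries was left out and held in 9 of 21 alternatives (adjusted p between 0.0176 and 0.238). Among the 8 tested p24 genes it was the only one called, and their median difference was 0.02. *Tmed1* had 6.27 and 9.62 FPKM in AKF against 10.1 and 11 FPKM in KO (log2 difference -0.39, adjusted p = 1.0).

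Promoter sequences of RefSeq (GRCm38.p6) were found for 4 of the 7 called genes, *Ascl2*, *R3hdml*, *Gkn3* and *Kctd12*. The 250 bases before the annotated start are printed, 5′ to 3′ on the gene's strand, for the 3 of these that were higher in AKF, because ASCL2 belongs to a class of factors that bind the E-box CANNTG, and every CANNTG is in capitals.
*Ascl2*, chr7:142969265-142969514, minus strand: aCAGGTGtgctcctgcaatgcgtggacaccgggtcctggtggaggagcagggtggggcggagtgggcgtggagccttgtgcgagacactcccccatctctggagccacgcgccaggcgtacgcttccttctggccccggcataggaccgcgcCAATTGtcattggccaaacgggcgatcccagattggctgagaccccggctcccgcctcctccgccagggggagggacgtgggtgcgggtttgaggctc
*R3hdml*, chr2:163492068-163492317, plus strand: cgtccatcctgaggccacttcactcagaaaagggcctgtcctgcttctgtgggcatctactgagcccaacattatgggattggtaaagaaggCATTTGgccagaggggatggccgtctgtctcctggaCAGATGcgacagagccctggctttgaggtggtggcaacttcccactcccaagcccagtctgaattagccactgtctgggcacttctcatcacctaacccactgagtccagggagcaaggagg
*Gkn3*, chr6:87388936-87389185, minus strand: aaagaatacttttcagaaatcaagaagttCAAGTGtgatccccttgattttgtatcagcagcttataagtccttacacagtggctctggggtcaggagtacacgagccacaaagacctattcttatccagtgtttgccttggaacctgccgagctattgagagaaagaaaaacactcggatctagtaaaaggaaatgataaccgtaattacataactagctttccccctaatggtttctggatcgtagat

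CANNTG reads the same on both strands, and it occurs 2 times in the *Ascl2* window, 2 times in that of *R3hdml* and 1 time in that of *Gkn3*. Over 32851 promoter windows of the same length, 66.2% hold at least 1 such match, so its presence is usual. The E-box CAGCTG, held by 13.0% of windows, was in none of the printed ones, and neither was the AP-1 motif TGANTCA, held by 6.75% and searched on both strands. The GC box GGGCGG, searched on both strands and held by 32.7% of windows, occurred 1 time in the *Ascl2* window and in neither of the other 2. A match is a description of these letters only.

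*Kctd12* (ENSMUSG00000098557, chr14:102976581-102982637), which encodes an auxiliary subunit of GABA-B receptors, was listed at 0 in both AKF and both WT libraries, against 3.0 and 2.63 FPKM in KO and 4.06 and 4.33 FPKM in AKFP. It was called lower in AKF than in KO (log2(FPKM + 1) difference -1.93, limma adjusted p = 0.00158), and no fold is given against values listed at 0. *Mir5130*, a miRNA gene inside *Kctd12* on the same strand, showed the opposite, with 1.13 and 2.00 FPKM in AKF and 0.789 and 1.58 FPKM in WT, against 0.120 and 0.113 FPKM in KO and 0.0961 and 0.0768 FPKM in AKFP. The genes overlap, so the *Kctd12* value is uncertain, and the part of *Mir5130* in it was not tested. The small RNA genes also overlap others, as *Gm47299* lies within *Rn7s2* and *Snord16a* within *Rpl4*. *Snord16a* stood at 4.29 and 5.38 FPKM in AKF, near 10.5 and 9.96 fragments, against 0.0158 and 0.0156 FPKM in KO. *Gm47299* stood at 5.30 and 7.71 FPKM in AKF, near 10.4 and 11.5 fragments, against 0.116 and 0.105 FPKM in KO.

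**Figure D3:**
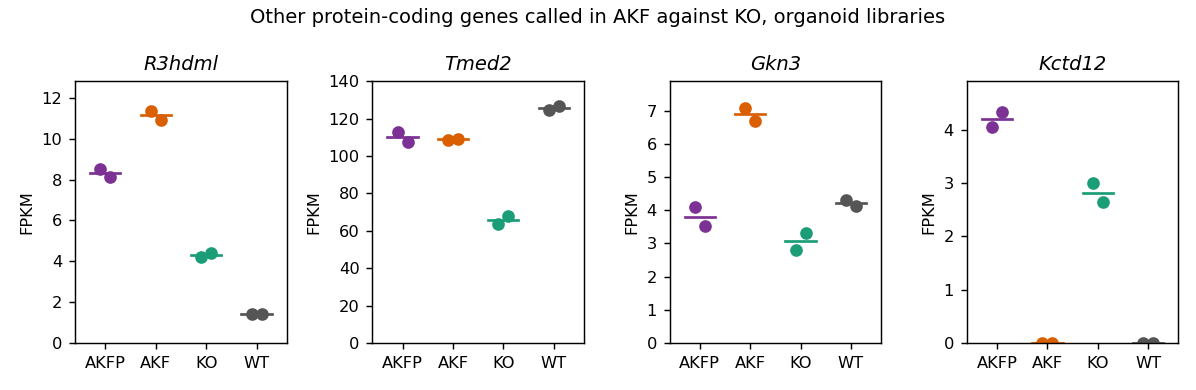
FPKM of *R3hdml*, *Tmed2*, *Gkn3* and *Kctd12* in each organoid library, with the line at the mean of the 2 libraries of a group. AKF is the highest group for *R3hdml* and *Gkn3*, lies between KO and WT for *Tmed2*, and is listed at 0 like WT for *Kctd12*.

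The 10 genes with the next smallest p did not pass. *Fiz1*, a zinc finger protein gene, came nearest, at 13.2 and 15.5 FPKM in AKF, against 6.32 and 7.41 FPKM in KO and 12.2 and 11.5 FPKM in WT (log2 difference 0.96, limma adjusted p = 0.0512). *Stau1*, which encodes a protein binding double-stranded RNA, stood at 8.96 and 10.5 FPKM in AKF, 5.36 and 5.43 FPKM in KO and 10.1 and 9.17 FPKM in WT (0.74, adjusted p = 0.0701). In both genes the AKF values were near WT and apart from KO. *Zfp568*, a KRAB zinc finger repressor gene, stood at 1.28 and 1.65 FPKM in AKF, 3.81 and 4.69 FPKM in KO and 1.22 and 1.71 FPKM in WT (-1.09, adjusted p = 0.0953), with AKF within the WT range. *Eml4*, which encodes a microtubule-binding protein, differed from this pattern, with 41.9 and 48.1 FPKM in AKF, 21.7 and 23.9 FPKM in KO and 24.2 and 25.9 FPKM in WT (0.95, adjusted p = 0.0701). *Ceacam16* (1.09), *Ube2v2* (0.74) and *Clps* (0.55) also had log2 differences above 0, and *Naaladl1* (-0.58), *Nrn1* (-0.66) and the small RNA gene *Gm22442* below 0, at adjusted p between 0.0682 and 0.0964.

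Genes linked to ASCL2 in mouse intestine were then read beside the higher level of *Ascl2*. None of the 10 listed genes was called in AKF against KO by limma, 1 had an unadjusted p under 0.05, and this count of 0 held in all 21 alternatives. Their median log2 difference was 0.16, against 0.00 for all tested genes, and 8 of 10 lay above 0. In 4 of the 10 both AKF libraries were above both KO libraries, and in 1 both were below, where 13.9% and 15.7% of all tested genes did so.

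*Lgr5*, the R-spondin receptor that defines crypt stem cells, stood at 10.2 and 11.4 FPKM in AKF, against 9.23 and 9.55 FPKM in KO and 14.5 and 15.7 FPKM in WT. The AKF libraries lay above KO and below WT, and the difference from KO of 0.18 on the log2 scale did not pass (95% interval 0.00 to 0.37; limma adjusted p = 1.0). *Olfm4*, a secreted stem cell marker, stood at 231 and 293 FPKM in AKF, 217 and 226 FPKM in KO and 467 and 548 FPKM in WT (AKF against KO 0.23, 95% interval -0.07 to 0.53). *Smoc2*, a matricellular protein gene of the crypt base, stood at 32.2 and 36.4 FPKM in AKF, 38.3 and 37.7 FPKM in KO and 54.5 and 57.5 FPKM in WT (-0.15, 95% interval -0.35 to 0.05). All 3 remained below WT in AKF, by 0.45 for *Lgr5* (adjusted p = 0.00655), 0.96 for *Olfm4* (adjusted p = 0.00253) and 0.69 for *Smoc2* (adjusted p = 0.00174).

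*Tnfrsf19*, a Wnt-responsive receptor of the TNF receptor family, had the member difference farthest from 0, with 1.65 and 2.31 FPKM in AKF, 0.880 and 1.09 FPKM in KO and 0.326 and 0.513 FPKM in WT. It did not pass against KO (log2 difference 0.58, limma adjusted p = 0.799) and was higher in AKF than in WT (1.06, adjusted p = 0.00325). *Cdca7*, a gene of proliferating cells, stood at 24.6 and 31.6 FPKM in AKF and 27.5 and 28.2 FPKM in KO, overlapping, and both groups were lower than WT at 40.4 and 43.1 FPKM. The transcription factor genes *Sox9* (0.06) and *Ets2* (0.19), the Eph receptor gene *Ephb3* (0.17), the interleukin receptor gene *Il11ra1* (0.16) and the ubiquitin ligase gene *Rnf43* (-0.02) had log2 differences from KO that did not pass, each at adjusted p = 1.0.

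Of 26 listed crypt stem cell genes 25 were tested, and 1, *Gkn3*, was called in AKF against KO. The list shares *Lgr5*, *Olfm4*, *Smoc2*, *Cdca7*, *Tnfrsf19*, *Rnf43* and *Ephb3* with the genes linked to ASCL2. Its median log2 difference was 0.08 and 19 of 25 lay above 0, and 4 had an unadjusted p under 0.05. Both AKF libraries were above both KO libraries for 10 of 25 and below for 1, against 13.9% and 15.7% of all tested genes. *Msi1*, an RNA-binding protein of stem cells, stood at 4.46 and 4.98 FPKM in AKF, 3.67 and 3.80 FPKM in KO and 4.76 and 5.37 FPKM in WT. It was lower in KO than in WT (log2 difference -0.36) and was not called in AKF against WT (-0.08) nor in AKF against KO (0.27, limma adjusted p = 0.939). *Cyp2e1* stood at 6.44 and 5.92 FPKM in AKF, 3.24 and 4.76 FPKM in KO and 1.58 and 1.20 FPKM in WT, with no overlap, and did not pass against KO (0.54, adjusted p = 1.0).

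**Figure D4:**
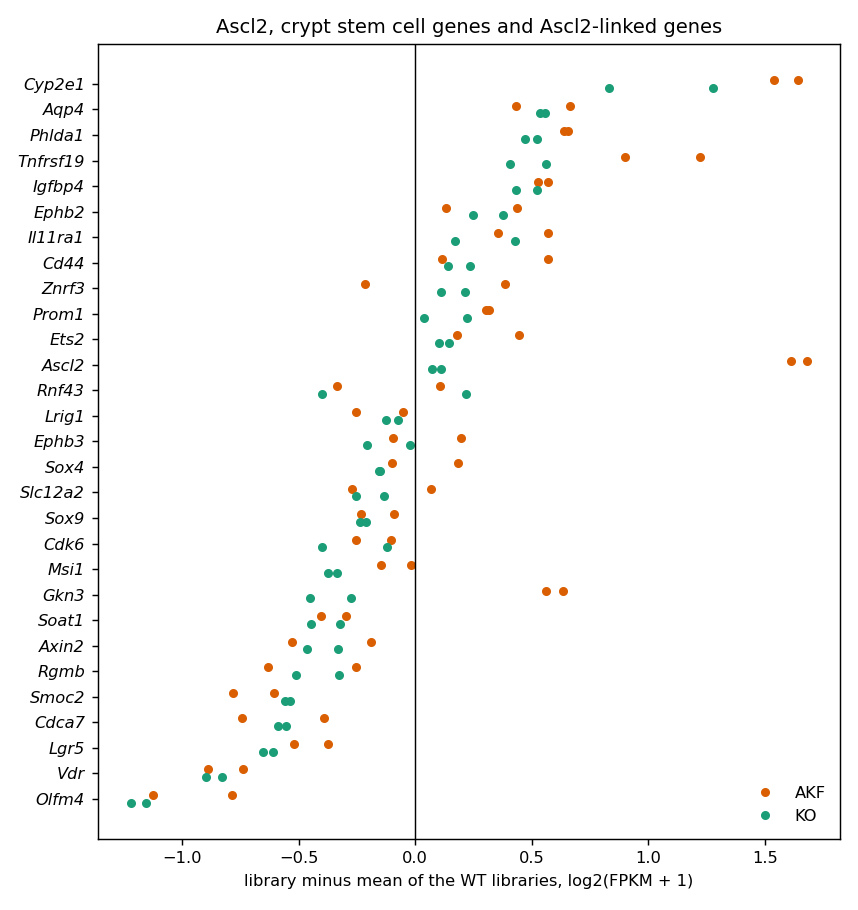
Level of *Ascl2*, the crypt stem cell genes and the genes linked to ASCL2 in each AKF (orange, upper) and KO (green, lower) library, as the difference from the mean of the 2 WT libraries on the log2(FPKM + 1) scale. *Ascl2* and *Gkn3* are the genes with AKF points far to the right of KO, and *Olfm4*, *Vdr*, *Lgr5*, *Cdca7* and *Smoc2* stay left of 0 in both groups.

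The 14 tested Wnt targets, some of which the stem lists also hold, had 0 calls by limma and a median difference of 0.01, with 1 unadjusted p under 0.05. *Axin2*, the negative feedback gene of Wnt signalling, stood at 21 and 26.9 FPKM in AKF and 22.1 and 24.3 FPKM in KO, and *Myc* at 39.8 and 39.1 FPKM in AKF and 47.4 and 45.3 FPKM in KO. The 28 cell cycle genes had 0 calls and no unadjusted p under 0.05. Their median was -0.07, with 24 of 28 below 0, or 23 of 28 after quantile normalization. *Mki67*, a proliferation marker, stood at 32.7 and 43.6 FPKM in AKF and 35.8 and 41.2 FPKM in KO, overlapping.

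The listed Paneth and goblet genes lay above KO without passing, while enteroendocrine genes were mixed. All 11 listed Paneth genes had a log2 difference above 0, with a median of 0.21. AKF and KO did not overlap for 6 of them, all higher, where 13.9% of all tested genes were higher without overlap. None was called by limma, and 3 had an unadjusted p under 0.05. *Mmp7*, the protease that activates defensins in mouse Paneth cells, stood at 183 and 193 FPKM in AKF, 116 and 117 FPKM in KO and 50.1 and 40.3 FPKM in WT (log2 difference 0.68, 95% interval 0.44 to 0.93; limma adjusted p = 0.146). *Lyz1*, the Paneth lysozyme, stood at 962 and 1075 FPKM in AKF, 737 and 660 FPKM in KO and 644 and 597 FPKM in WT (0.54, adjusted p = 0.298). The groups stood apart for both genes, and the 5 listed defensins, which have near-identical copies and so uncertain values, had log2 differences of 0.02 to 0.21. Defensin genes off the list lay on both sides of 0, as *Defa29* (-0.54) and *Defa35* (0.79), and these did not pass. *Mptx2*, a Paneth gene also off the list, lay below 0 (-0.50) and did not pass.

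All 8 tested goblet genes also lay above 0, with a median of 0.24, 5 higher without overlap (13.9% of all tested genes), 0 called and 2 at an unadjusted p under 0.05. *Clca1*, a mucus protein gene, stood at 111 and 102 FPKM in AKF, 78.9 and 88.9 FPKM in KO and 9.35 and 8.43 FPKM in WT (0.34, limma adjusted p = 0.799), and *Fcgbp*, another mucus protein gene, at 315 and 323 FPKM in AKF, 258 and 284 FPKM in KO and 118 and 118 FPKM in WT (0.23, adjusted p = 0.932). *Atoh1*, the transcription factor gene of secretory fate, stood at 12.2 and 11.8 FPKM in AKF, 8.91 and 8.86 FPKM in KO and 5.74 and 5.57 FPKM in WT (0.39, adjusted p = 0.298). AKF libraries were above all KO and WT libraries for each of these 3 genes. The signs over the Paneth and goblet lists were the same under all 3 other scalings tried. Of the 14 enteroendocrine genes 0 were called, 3 had an unadjusted p under 0.05 with a difference above 0 and 1 with a difference below 0, and the median was 0.12. Their log2 differences lay above 0 for 9 and below 0 for 5. AKF and KO did not overlap for 7 that were higher and 4 that were lower, against 13.9% and 15.7% of all tested genes. *Nts*, the neurotensin gene, was farthest below 0 among the 14, with 2.02 and 3.20 FPKM in AKF against 3.55 and 4.78 FPKM in KO (-0.53, limma adjusted p = 0.981). Off the list, the hormone genes *Gast* (-1.065) and *Iapp* (0.63) lay on either side of 0, and neither passed. *Neurog3* was farthest above 0 among the 14 (0.89) and did not pass.

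Lists for other epithelial states had no calls either. The reserve stem cell genes (6 tested, median -0.02), the fetal-like and YAP genes (6 of 11 tested, median 0.17) and the enterocyte genes (14 of 15 tested, median 0.03) had no unadjusted p under 0.05 in limma. The genes of Notch signalling and secretory choice (10 tested, median 0.07) and the m6A machinery (17 of 18 tested, median 0.03) each had 1, and the p53 targets (16 tested, median 0.03) had 1 above 0 and 1 below 0. Of 9 tuft genes 2 were tested, and *Sh2d6*, a tuft cell marker, stood at 1.25 and 0.870 FPKM in AKF against 2.35 and 2.27 FPKM in KO (log2 difference -0.69, adjusted p = 0.287).

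Most changes between KO and WT organoids were also present between AKF and WT organoids. limma called 3570 of 12657 genes (28.2%) in KO against WT, 2109 higher (16.7%) and 1461 lower (11.5%), and 3839 (30.3%) in AKF against WT, 2228 higher (17.6%) and 1611 lower (12.7%). The comparisons share the 2 WT libraries, so likeness between them is partly built in. Of the 2109 genes higher in KO, 1827 (86.6%) were also called higher in AKF, with medians against WT of 0.53 in AKF and 0.54 in KO. Of the 1461 lower in KO, 1216 (83.2%) were also called lower in AKF, with a median of -0.45 in both. Together 3043 of 3570 (85.2%) stayed, and of the other 527 genes 524 were not called in AKF against WT and 505 had the same sign as in KO. Without the AKFP libraries, KO against WT called 3169 genes, AKF against WT called 3444, and 2668 of the 3169 (84.2%) stayed. The share that stayed was 68.1% (2546 of 3738) without AKF replicate 1, 62.9% (2356 of 3743) without AKF replicate 2 and 66% (2217 of 3357) when only the groups compared were fitted. Without KO replicate 1 or 2 or WT replicate 1 or 2, KO against WT called 1794, 1732, 1933 and 1840 genes and 1680, 1593, 1699 and 1591 changes stayed, and without WT replicate 1 or 2 AKF against WT called 2230 and 2138 genes.

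Only 4 of the 3570 were called back towards WT in AKF against KO, namely *Tmed2*, *Gkn3*, *Kctd12* and *Gm47299*. Of these, *Kctd12* passed the filter on low values only through KO and *Gm47299* only through AKF, so their calls give no support. Another 1, *R3hdml*, was called further from WT. The number called back was between 1 and 5 over the alternatives, 1 without WT replicate 1, 2 without AKF replicate 1 or 2 or AKFP replicate 1 or 2 and 2 without both AKFP libraries. At an unadjusted p under 0.05, 111 lay back towards WT and 139 further from it. KO against WT and AKF against KO share the 2 KO libraries, so moves back towards WT are partly built in. These counts are a description only. *Gkn3*, *Gm47299* and *Gm44126* passed WT, being lower in KO and higher in AKF. For *Gm47299* the knockout fall rests on near 1.73 and 1.66 fragments in the WT libraries, against 0.17 in each KO library.

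The interferon response genes, which encode antiviral proteins, included the largest knockout rise, that of *Isg15*, and stayed. Of all genes called higher in KO, 86.6% stayed. All 19 interferon response genes were higher than WT in AKF (median log2 difference 1.89) and in KO (median 1.95). In AKF against KO they had 0 calls, no unadjusted p under 0.05 and a median of -0.01. *Isg15*, a ubiquitin-like protein gene, stood at 74.0 and 97.5 FPKM in AKF and 74.2 and 116.5 FPKM in KO, against 1.54 and 1.71 FPKM in WT. *Ifit3* stood at 13.9 and 21.2 FPKM in AKF and 11.7 and 25.3 FPKM in KO, against 0.473 and 0.695 FPKM in WT. AKF and KO overlapped for both, and the 4-OHT given to both and not to WT cannot be told apart from the deletion in this contrast.

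Other knockout changes stayed by list as well. Of all genes called higher in KO, 86.6% were also called higher in AKF, so staying was usual. All 7 goblet genes, 9 enteroendocrine genes and 4 Paneth genes called higher in KO were called higher in AKF. *Chgb*, a granin of enteroendocrine cells, stood at 579 and 558 FPKM in AKF and 539 and 519 FPKM in KO, against 241 and 201 FPKM in WT. All 8 AP-1 and immediate early genes higher in KO stayed higher, among them *Junb* at 220 and 209 FPKM in AKF and 248 and 228 FPKM in KO, against 138 and 133 FPKM in WT. This list holds JUN and FOS family genes beside other immediate early genes, such as *Egr1* and *Nr4a1*. In AKF against KO its 14 genes had 0 calls, no unadjusted p under 0.05 and differences of -0.16 to 0.15. The 10 tested Kruppel-like genes other than *Klf9* likewise had 0 calls and no unadjusted p under 0.05.

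All 7 enterocyte genes lower in KO stayed lower in AKF, where 83.2% of all genes lower in KO did so. *Fabp1*, a fatty acid binding protein gene, stood at 901 and 555 FPKM in AKF and 670 and 640 FPKM in KO, against 1673 and 1471 FPKM in WT. The 2 AKF libraries differed in this list, whose 15 genes summed to 2394 and 1499 FPKM in AKF, 1766 and 1838 FPKM in KO and 3314 and 3222 FPKM in WT, so that AKF spanned KO. Of 8 cholesterol synthesis genes lower in KO 7 stayed lower, and *Idi1*, an enzyme of isoprenoid synthesis, did not pass in AKF against WT, with 45.2 and 49.2 FPKM in AKF, 24.8 and 48.2 FPKM in KO and 80.6 and 83.4 FPKM in WT.

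The largest knockout falls included *Ctrb1*, a digestive protease precursor gene, at 1.80 and 0.488 FPKM in AKF and 0.522 and 0.622 FPKM in KO, against 18.0 and 15.6 FPKM in WT. *Cyp3a25*, a cytochrome P450 gene, stood at 1.36 and 0.660 FPKM in AKF and 1.05 and 0.854 FPKM in KO, against 7.99 and 8.66 FPKM in WT. *Ugt1a5*, which shares exons with the other *Ugt1a* genes and is therefore uncertain, stood at 0.0392 and 0.0243 FPKM in AKF and 0.0543 and 0.0228 FPKM in KO, against 26.9 and 28.7 FPKM in WT. All 3 were lower than WT in AKF as in KO (limma adjusted p of AKF against WT 0.000634, 0.000408 and 4.58e-06).

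The genes called in AKF organoids were also read in the 12 tissue libraries, where no factor was delivered and no test was made here. These hold crypt cells sorted by the Lgr5-EGFP reporter, except the day 6 knockout libraries, whose labels name no gate. *Ascl2* stood at 39.1 and 40.0 FPKM in WT Lgr5-high cells and at 9.40 and 7.91 FPKM in WT Lgr5-low cells, so the AKF organoid level was near that of the Lgr5-high gate. *Gkn3* stood at 43.4 and 53.6 FPKM in WT Lgr5-high and at 8.51 and 8.77 FPKM in WT Lgr5-low cells, and all AKF organoid values were below both. Per the labels, the 8 knockout tissue libraries were from days 3, 4 and 6 and had tamoxifen for 4 days. No tamoxifen is recorded for the 4 WT tissue libraries, so tamoxifen and the deletion cannot be told apart. *R3hdml* lay between 1.11 and 17.1 FPKM in the 8 tissue libraries labelled knockout, all above the 4 WT libraries at 0.178 to 0.454 FPKM, as KO organoids lay above WT organoids. *Tmed2* lay between 51.6 and 129.8 FPKM in knockout tissue and between 93.5 and 110.1 FPKM in WT tissue. Of the 8 knockout libraries 5 were below all WT libraries and 3 were above all of them. *Kctd12* was above 0 in all 12 tissue libraries, between 5.33 and 38.7 FPKM in knockout and between 4.32 and 8.96 FPKM in WT. The tissue files were normalized apart from the organoid table, which limits levels set side by side.

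**Figure D5:**
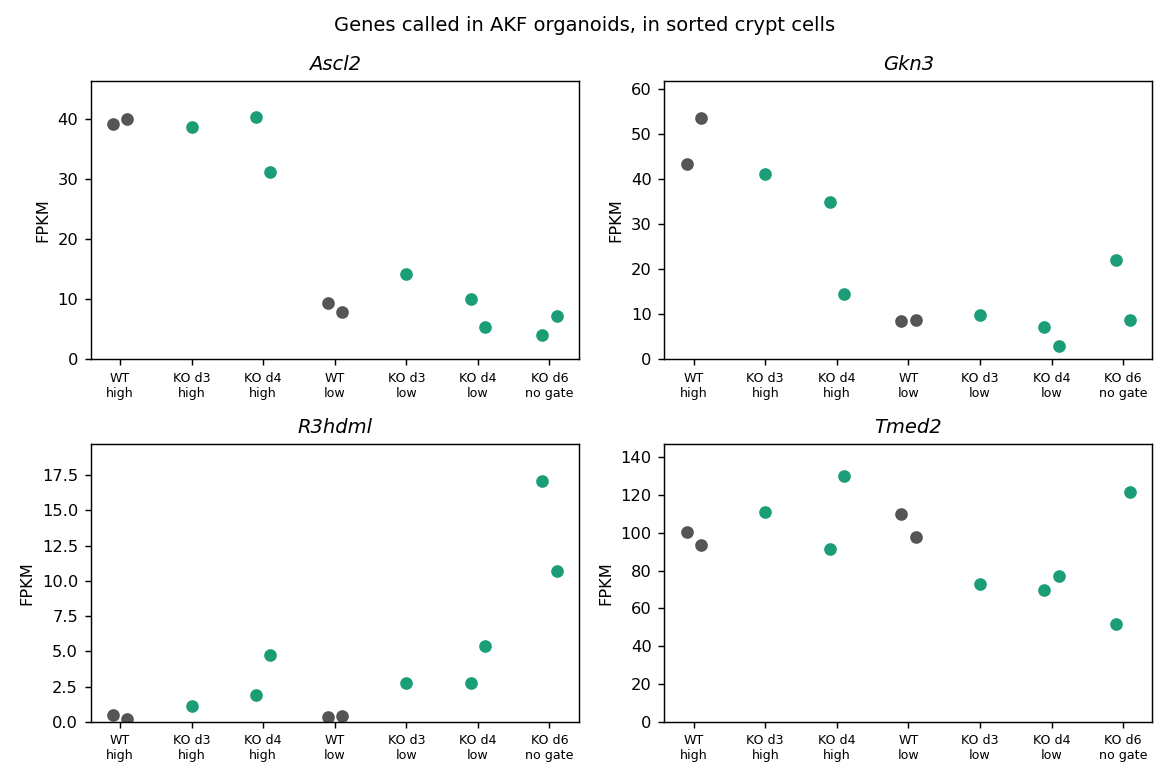
FPKM of *Ascl2*, *Gkn3*, *R3hdml* and *Tmed2* in each tissue library, from WT to days 3 and 4 of the knockout within each Lgr5 gate, then day 6, whose labels name no gate. *Ascl2* and *Gkn3* are high in the Lgr5-high gate of WT, and every knockout point of *R3hdml* is above the WT points.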

How the data were processed

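RNA was sequenced from organoid cells in 8 libraries (NEBNext Ultra kit, total RNA, per the labels). Per the file headers, the authors' deposited tissue files hold FPKM. No unit stands in the header of the organoid table, and its values were taken as FPKM because rows and number format match the tissue files and its low values step in whole fragments. HISAT2 2.1.0, StringTie 1.3.3b and mm10 come from the submitters' processing notes, which do not say which step each did. Symbols and positions are from GENCODE on GRCm38 (mm10), with 54809 of 54838 rows matched.

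Values were analysed as log2(FPKM + 1), without further scaling, so differences of genes at low FPKM are understated. Genes entered at 1 FPKM in at least 2 libraries, of the 4 AKF and KO libraries for AKF against KO and of all 8 for other comparisons. limma 3.58.1 in R 4.3.3 (lmFit, eBayes with a trend) was fitted to the 8 libraries with 1 mean per group. P-values are two-sided and were adjusted by Benjamini-Hochberg across every gene that entered, with 0.05 as the threshold. The steps were tested on simulated data. Depth was estimated from the smallest steps of 13354 genes with 1 exon and is rough. No 2 libraries were identical.

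The members and the 22 gene lists were chosen with earlier results of these data known. The rule for naming genes took the 4 factors, *Mettl3*, *R3hdml*, *Tmed2*, *Kctd12*, *Lgr5*, *Olfm4* and *Smoc2*, and all called genes. It also took the 10 next by p, the ASCL2-linked list, the 2 of smallest p per list, and the 8 largest knockout rises and falls. Of the genes of smallest p per list and the knockout rises and falls, only some are named here. Other examples were chosen after their values were seen. Alternatives changed the libraries fitted, pseudocount, filter, scaling, variance trend, replicate block and each library left out. The fit without AKFP libraries and the fit of protein-coding genes only were added after seeing the data.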

Additional observations from a re-analysis of the deposited data

Results flagged for a closer look

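*Xist*, the RNA of the inactive X chromosome, stood at 47.53 and 33.28 FPKM in the 2 AKFP organoid libraries, which take no part in the comparison of AKF with KO, and at most 0.0153 FPKM in all other organoid libraries. Y-linked genes were listed at 0 in the same 2 libraries.

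*R3hdml*, called higher in AKF than in KO organoids, had its lowest value of 1.112 FPKM and its highest of 17.1 FPKM among the 8 tissue libraries labelled knockout. All 8 were above the 4 WT tissue libraries, at 0.178 to 0.454 FPKM. The tissue comparison was not tested here, and tamoxifen and the deletion cannot be told apart in it.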

How the results depend on the processing

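The comparison of AKF with KO called 7 genes, 4 when only its 4 libraries were fitted, 13 with no filter on low values, and 5 to 7 when each library in turn was left out. Without AKF replicate 1 the balance of higher to lower calls turned to 2 higher and 5 lower, and without AKF replicate 2 to 3 higher and 4 lower. The call of *Ascl2* held in all 21 alternatives, with log2 differences of 1.52 to 1.62, and neither *Klf9* (0.40 to 0.47) nor *Fosb* (-0.52 to 0.04) was called in any. *R3hdml* was called in 20 of 21, *Tmed2* in 9 of 21 and *Gkn3* in 4 of 21. *Kctd12* passed the filter on low values only through KO, and *Gm47299* and *Snord16a* only through AKF. *Kctd12* and *Gm47299* were called in all 18 alternatives in which they were tested, and *Snord16a* in 16 of 17. The other alternatives took them out of the test, so these counts are not a check of the calls. Knockout changes called back numbered 4, but 1 when only the groups compared were fitted, 2 with equal FPKM sums, 2 with the replicate block, 2 without the AKFP libraries (added after seeing the data) and 1 to 4 when each library was left out. Same-numbered libraries shared only a number (correlation of their deviations -0.04 to 0.09), and the replicate block called 5 genes, without *Tmed2* and *Gkn3*. Leaving out each library gave 1732 to 3743 calls in KO against WT, 2138 to 3446 in AKF against WT, 973 to 2880 in AKFP against AKF and 1591 to 2661 knockout changes that stayed. Leaving out a library of the groups compared leaves 1 on that side, assumed to vary like the others. AKFP against AKF called 1313 genes without AKF replicate 1, 1562 and 973 without AKFP replicates 1 and 2, and 1800 when only those groups were fitted. The cause of these shifts was not tested, apart from the smaller number of libraries. With 2 libraries a group, differences such as that of *Lgr5* (95% interval 0.00 to 0.37) are not shown to be absent, and protein-coding genes alone gave 7 calls, 5 of them shared with the full table.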
